A study of Mus musculus with 4 samples.

Results

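The 65 genes described here are those that RefSeq listed as non-coding and that were expressed in all 4 embryos of the series. A gene was taken when every one of its entries carried a RefSeq non-coding RNA identifier, when at least 1 entry was 200 bases or longer, and when its summed level reached 5 FPKM in every embryo. FPKM counts sequenced fragments of a transcript, scaled to its length and to the mapped fragments of the library. Of the 22096 genes in the tables, 1719 had only non-coding entries and 989 of those had an entry of at least 200 bases. A further 11 genes met the same floor and were left out by name: Airn, Gas5, H19, Meg3, Rian, Snhg1, Snhg12, Snhg3, Snhg6, Snhg8 and Snord17. The genes were thus chosen by their measured FPKM in these 4 embryos, so the levels of the 65 genes are given as a description.

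RNA-seq was done on palatal shelf cells of embryonic day 13.5 mouse littermates of mixed background, dissociated and sorted for red fluorescence. All 4 embryos carried 1 Osr2RFP allele, a knock-in that makes the red fluorescent protein from the Osr2 locus, so each library held the Osr2-expressing cells of 1 embryo. The controls were 1 Osr2RFP/+ embryo with both Foxf2 alleles intact (Foxf2+/+) and 1 Foxf2+/-Osr2RFP/+ embryo. The mutants were 2 Foxf2-/-Osr2RFP/+ embryos, which lacked the forkhead transcription factor Foxf2 in every tissue. The comparison asked which genes differed between Foxf2-/- palatal mesenchyme and both control genotypes, and with 1 embryo per control genotype a difference between the controls had no replicate check.

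Long non-coding RNAs are transcripts that are not translated into a known protein. Some act in the nucleus as architectural or regulatory RNAs, some are the catalytic or scaffold RNAs of enzymes, and some are precursors from which microRNAs or small nucleolar RNAs are cut. Many start next to, or run antisense to, genes of developmental regulators, and others are transcribed or presumed copies of protein-coding genes that were reverse-transcribed into a new site (retrocopies).

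The name of the group held only in part. A later RefSeq release, which matched 61 of the 65 genes, typed 33 as lncRNA, 3 as antisense RNA, 1 as RNase MRP RNA and 1 as RNase P RNA. It typed 16 as transcribed pseudogenes and 1 as a pseudogene. The remaining 6 matched genes, 0610012G03Rik, 1810058I24Rik, 2010107H07Rik (now Smim4), 2210013O21Rik (now Nbdy), 5930416I19Rik (now Rhno1) and D430019H16Rik, were typed as protein coding. The 65 genes are therefore called RefSeq non-coding genes below. In all, 20 of them now carry another symbol.

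By level, the group was led by entries that the mm9 tables placed on exons of a protein-coding gene. There were 12 such entries, which together took 65.5% of the FPKM of the 65 genes (mean over embryos). For 10 of the 12, the later RefSeq release placed the gene on another chromosome than the tables did. The 12 entries and the coding genes they lay on were Gm12191 on Rpl30 and Gm15772 on Rpl26, both ribosomal protein genes, Tpt1p on Tpt1, LOC624853 on the chaperone gene Hspa8, Gm6793 on Hnrnpa3, Gm5643 and Gm10052 on Hnrnpa1, Nutf2-ps1 on Nutf2, Gm6644 on Akr1b3, Gm12669 on Glrx3, Gm13363 on Ptp4a1 and Atp6v0c-ps2 on the proton pump gene Atp6v0c. Hnrnpa1 and Hnrnpa3 encode RNA-binding proteins of nuclear RNA processing. Gm5643 and Gm10052 shared chr15:103070885-103075015 and so were not independent of each other.

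For 9 of the 12 entries the mm9 annotation also holds a gene of the same name at another site, and its sequence was aligned to the coding sequence of the gene on which the entry had been placed. They were nearly identical. Nutf2-ps1 had 0 mismatches in 381 aligned coding bases of Nutf2, Gm12191 had 1 in 345 of Rpl30, Gm15772 had 2 in 435 of Rpl26 and Gm6793 had 7 in 1069 of Hnrnpa3. Gm5643 had 13 mismatches with the Hnrnpa1 coding sequence and Gm10052 had 1, with 162 and 159 alignment columns left as gaps. The pairs below show how little separates a copy from its coding gene, with mismatched bases in capitals and the rest in lower case. Each line is 60 bases of mm9, 5′ to 3′ on the strand of the gene, and each copy stands under its coding gene. Rpl30 is shown from chr15:34372432-34372491 (minus strand) and Gm12191 from chr11:49492435-49492494 (minus). Rpl26 is from chr11:68716762-68716821 (plus) and Gm15772 from chr5:3236680-3236739 (plus). Hnrnpa3 is from chr2:75499815-75499874 (plus) and Gm6793 from chr8:114538633-114538692 (minus). Hnrnpa1 is from chr15:103072834-103072893 (plus) and Gm5643 from chrX:138732717-138732776 (plus).
Rpl30: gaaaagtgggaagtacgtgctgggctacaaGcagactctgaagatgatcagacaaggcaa
Gm12191: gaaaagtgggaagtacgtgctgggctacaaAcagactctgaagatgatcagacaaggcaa
Rpl26: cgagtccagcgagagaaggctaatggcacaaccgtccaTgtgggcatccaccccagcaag
Gm15772: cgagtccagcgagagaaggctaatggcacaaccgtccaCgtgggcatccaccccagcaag
Hnrnpa3: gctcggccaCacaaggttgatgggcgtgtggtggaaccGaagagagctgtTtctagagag
Gm6793: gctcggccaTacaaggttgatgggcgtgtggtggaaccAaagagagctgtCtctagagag
Hnrnpa1: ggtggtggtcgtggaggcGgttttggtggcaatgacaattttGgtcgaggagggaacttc
Gm5643: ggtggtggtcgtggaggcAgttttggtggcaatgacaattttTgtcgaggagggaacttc
The windows were chosen as the 60 bases of a single coding exon that held the most mismatches. How reads that match both sites were assigned is not given in the sources used here.

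Levels ranged from 5.16 to 823 FPKM, and the median over the 65 genes of their mean level was 15.2 FPKM. The distribution was steep: 8 genes had a mean over 100 FPKM, 18 lay between 20 and 100, and 39 were lower, 23 of them under 10. The 10 highest genes held 76.7% of the summed level. Gm12191 measured 823 FPKM in the Foxf2+/+ control, 769.9 in the Foxf2+/- control, and 683 and 783 in Foxf2-/- replicates 1 and 2. Tpt1p measured 739 and 751 in the Foxf2+/+ and Foxf2+/- controls against 695 and 747. The genes among the 10 highest that were not of this kind were Malat1, Apeg3, 2610203C20Rik (now Mir100hg) and 1110038B12Rik.

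**Figure D1:**
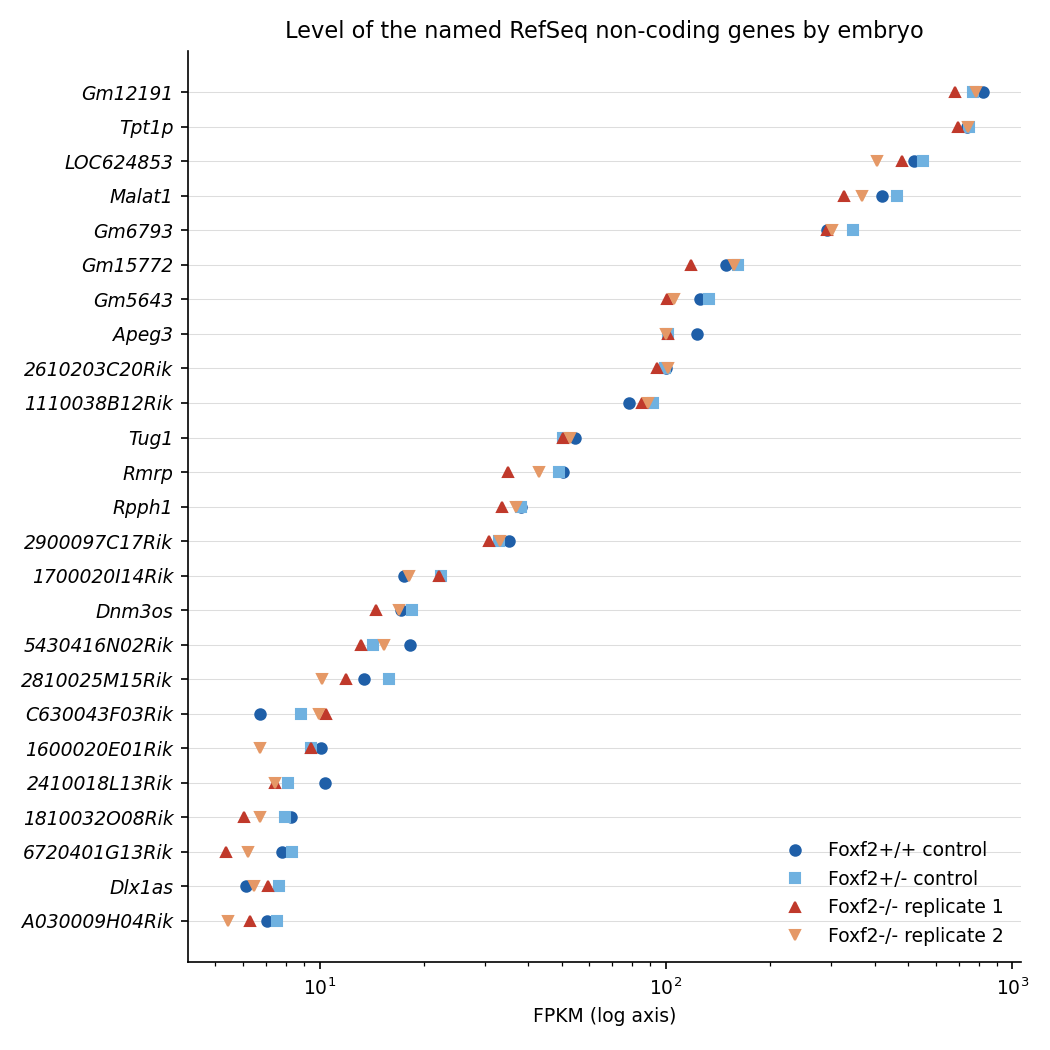
Level in FPKM (log axis) of the 25 named RefSeq non-coding genes, 1 point per embryo, ordered by mean. The 4 embryos of a gene lie close together against a range from 5.36 to 823 FPKM across these genes, and the 2 Foxf2-/- points (triangles) sit left of both controls for Malat1, Rmrp and 6720401G13Rik.

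Facts of the whole series that touch these values were as follows. Foxf2 itself measured 85.4 and 45.1 FPKM in the Foxf2+/+ and Foxf2+/- controls and 1.41 and 2.28 FPKM in the Foxf2-/- embryos, which matched the labels. Of 12 palatal mesenchyme markers, 11 were expressed above the filter, and the 12 summed to 896 to 1007 FPKM per embryo. The summed level of 10 epithelial markers was 8.25 to 10.8 FPKM and that of 6 endothelial markers 0.417 to 1.503 FPKM. White cells including macrophages, neurons with glia, and skeletal muscle had 6 markers each. These summed to 10.5 to 17.8, 3.58 to 7.43 and 1.34 to 2.64 FPKM. The 7 red blood cell markers summed to 296, 1780 and 1549 FPKM in the Foxf2+/+ control, the Foxf2+/- control and Foxf2-/- replicate 1, and to 4240 FPKM in replicate 2. Their part in the results below was not tested. Coverage per FPKM, a measure of relative depth, was up to 1.19 times that of the Foxf2+/+ library, and the depth in reads is unknown. In bulk RNA, a lower level per cell and fewer expressing cells cannot be told apart.

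None of the 65 genes differed between the Foxf2-/- embryos and both controls by the criteria applied. A difference of more than 1.5-fold from each control, in the same direction, was seen for 0 of the 65 genes, beside 0.662% of the 7399 tested genes and 0.233% of the 6438 genes held to the same floor of 5 FPKM in every embryo. All 65 genes were in the test, because the floor admitted only genes above its filter. limma with Benjamini-Hochberg adjustment over the 7399 genes called 0 of them, beside 0.0811% of all tested genes and 0.0466% of those at the same floor, and the lowest adjusted p was 0.188. At an unadjusted limma p under 0.05 there were 13 genes, or 20%, beside 14.7% of all tested genes, and 12 of those 13 (18.5% of the 65) were lower in the Foxf2-/- embryos, beside 11.9% of all tested genes and 12.2% at the same floor. The lowest and the highest difference were −0.47 and 0.40 on the log2(FPKM + 0.1) scale, both under the 1.5-fold line, and the median standard error was 0.116.

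As deposited, most of the genes were slightly lower in the Foxf2-/- embryos, as were most genes of the whole table, but this depended on the scaling. The median log2 difference of the 65 genes was −0.11, with the middle part from −0.19 to 0.03, against −0.08 over all tested genes. The difference was below 0 for 43 genes, or 66.2%, beside 73.1% of all tested genes and 73.5% at the same floor. When each library was rescaled by median ratios, the median was −0.03 against −0.002 over tested genes, and 55.4% of the 65 genes lay below 0 beside 50.7%. Both Foxf2-/- embryos lay beyond both controls for 25 genes, 4 higher and 21 lower. That was 38.5% of the genes, beside 47.4% of all tested genes, with 6.15% beside 8.66% higher and 32.3% beside 38.7% lower. At the same floor the shares of all genes were 47.3%, 8.22% and 39.1%. With 2 embryos against 2, the smallest 2-sided p that an exact permutation test can give for a single gene is 0.333. This split moved with the scaling too: after rescaling, 8 of the 65 genes lay higher and 13 lower, beside 21.4% and 22.6% of the tested genes. The 13 were all among the 21 as deposited.

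**Figure D2:**
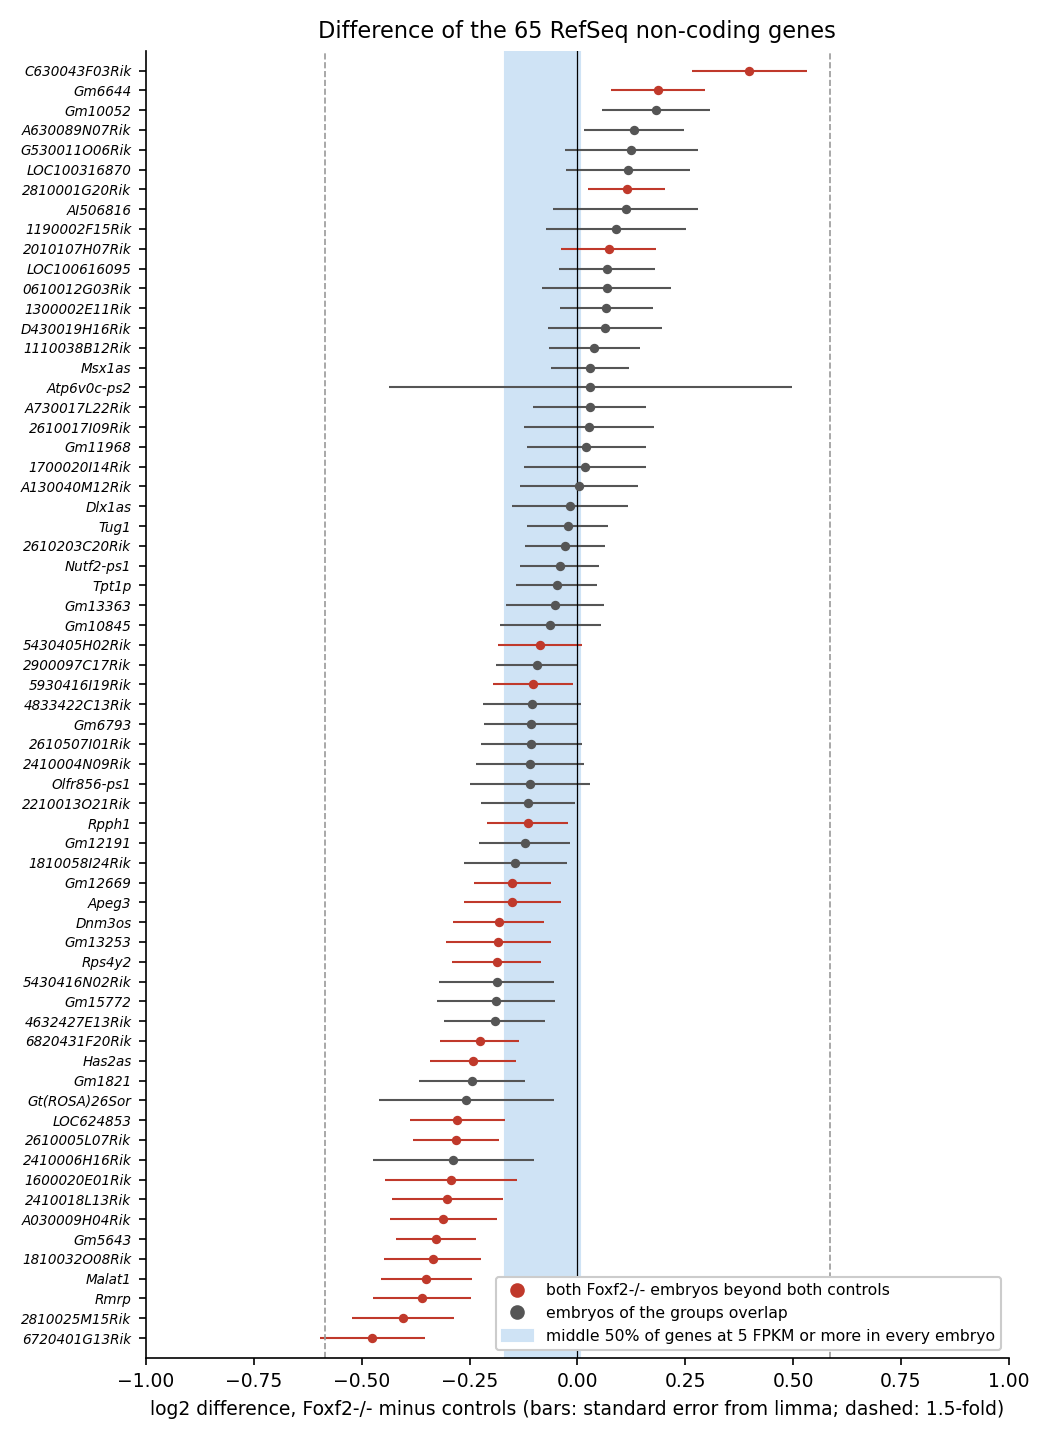
Log2 difference between the Foxf2-/- embryos and the controls for each of the 65 RefSeq non-coding genes, with the limma standard error as a bar. All points lie between the dashed 1.5-fold lines, from −0.47 for 6720401G13Rik to 0.40 for C630043F03Rik, and the shaded band marks the middle 50% of genes at 5 FPKM or more in every embryo.

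Set against each control alone, 3 genes passed 1.5-fold from the Foxf2+/+ control (4.62%, beside 2.95% of tested genes and 1.62% at the same floor) and 1 from the Foxf2+/- control (1.54%, beside 1.22% and 0.575%). The 3 were C630043F03Rik (0.59 on the log2 scale), Gt(ROSA)26Sor (−0.59) and Atp6v0c-ps2 (0.90). Atp6v0c-ps2 was also the gene past 1.5-fold from the Foxf2+/- control, at −0.84, in the opposite direction. The controls themselves differed by more than 1.5-fold in 2 genes (3.08%, beside 1.43% and 0.683%), Atp6v0c-ps2 and Gt(ROSA)26Sor. The 2 Foxf2-/- embryos differed by that much in 2 genes (3.08%, beside 1.41% and 0.715%), Atp6v0c-ps2 and 2410006H16Rik, of which the latter measured 44.5 and 68.9 FPKM in them.

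**Figure D3:**
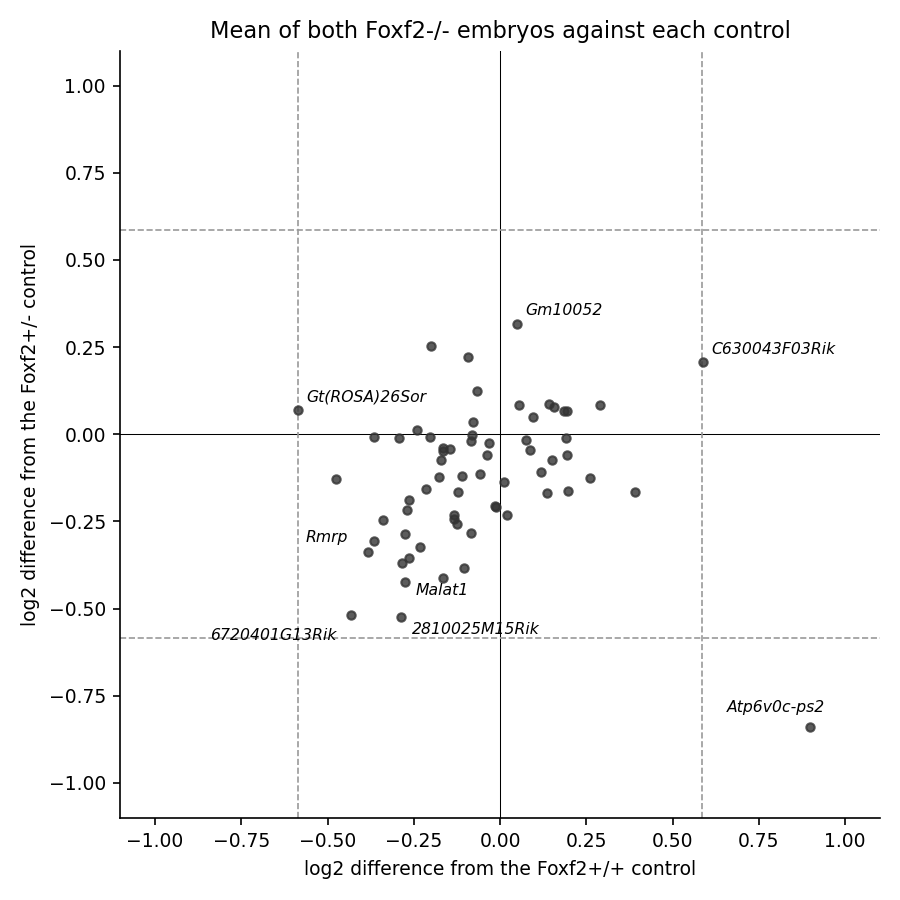
Log2 difference of the mean of both Foxf2-/- embryos from the Foxf2+/+ control (horizontal) and from the Foxf2+/- control (vertical), 1 point per gene, with dashed lines at 1.5-fold. No point lies past both lines in the same direction, and Atp6v0c-ps2 lies past both in opposite directions, at 0.90 and −0.84.

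Malat1, an abundant nuclear RNA of the splicing-factor bodies called nuclear speckles, was the highest gene with no coding gene at its site (chr19:5795690-5802671, minus strand). It measured 420 FPKM in the Foxf2+/+ control and 465 in the Foxf2+/- control, and 327 and 367 FPKM in the Foxf2-/- embryos. Both mutants lay below both controls. The log2 difference was −0.35 (SE 0.106), with a limma adjusted p of 0.237. The 10 nuclear speckle protein genes on the fixed list were all tested and 0 passed either criterion, with a median log2 difference of −0.16. As deposited, 7 of the 10 were lower in both Foxf2-/- embryos, beside 38.7% of all tested genes. This count was not repeated after rescaling for this list or those below. Srsf11, a speckle splicing factor, had the largest difference of them at −0.31, with levels of 51.7, 51.3, 41.4 and 41.6 FPKM in the order Foxf2+/+, Foxf2+/-, and Foxf2-/- replicates 1 and 2.

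Neat1, the scaffold RNA of paraspeckles, did not meet the floor. It was listed at 0.215 to 0.505 FPKM in the 4 embryos. The paraspeckle protein genes were expressed all the same: 11 of the 12 on the list were tested, 0 passed either criterion, and their median log2 difference was −0.07. Among the 11, 4 were lower in both Foxf2-/- embryos, beside 38.7% of all tested genes. Nono and Sfpq, both core paraspeckle proteins, measured 157 to 181 FPKM and 79.8 to 91.0 FPKM across embryos. Of 12 proteins of long non-coding RNA turnover and capping, 11 were tested and 0 passed, with a median of −0.14. Among these 11, 8 were lower and 1 was higher in both Foxf2-/- embryos, beside 38.7% and 8.66% of all tested genes. Of the 7 X-inactivation centre RNAs looked for, 4 were in the tables and 0 reached the floor. Xist, which coats the inactive X of female cells, was at 0.0270 to 0.0455 FPKM. The Y-linked genes Ddx3y, Eif2s3y, Kdm5d and Uty were all listed in every embryo. Their ranges were 5.52 to 6.28, 9.71 to 11.04, 6.29 to 6.85 and 2.56 to 2.84 FPKM.

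6720401G13Rik, now Firre, an X-linked RNA known from work on nuclear organisation, showed the largest lower difference of the 65 genes. It lay at chrX:47908921-47988435 on the minus strand and measured 7.80 and 8.30 FPKM in the Foxf2+/+ and Foxf2+/- controls. The Foxf2-/- embryos had 5.36 and 6.19 FPKM, both below the controls. The log2 difference was −0.47 (SE 0.121) and the limma adjusted p 0.188, the lowest of the group. Both of its entries, of 5752 and 4872 bases, were lower in both Foxf2-/- embryos, the longer with 4.77 and 5.38 FPKM in the controls against 3.42 and 4.08, and the shorter with 3.03 and 2.91 against 1.93 and 2.11.

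The opposite end was held by C630043F03Rik, a lncRNA at chr4:71862278-71864964 on the plus strand. It starts 325 bases from the start of Tle1, a Groucho-type transcriptional corepressor gene on the other strand. C630043F03Rik measured 6.74 FPKM in the Foxf2+/+ control, 8.81 in the Foxf2+/- control, and 10.5 and 9.94 in the Foxf2-/- embryos. Both mutants lay above both controls, and the Foxf2+/- control lay between. The log2 difference was 0.40 (SE 0.133) with a limma adjusted p of 0.260, and 0.21 against the Foxf2+/- control alone. Without the Foxf2+/- control the difference was 0.59, with 1 control left, so its size depended on which control was used. Tle1 had 8.35, 8.50, 9.15 and 10.5 FPKM in these embryos and differed by 0.22 (SE 0.105), with a limma adjusted p of 0.382.

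The promoters of these 2 genes are shown because they had the lowest and the highest difference of the 65. They are 300 bases each, 250 before and 50 after the start, from RefSeq on GRCm38.p6, 5′ to 3′ on the strand of the gene (plus for C630043F03Rik on chromosome 4, minus for 6720401G13Rik on chromosome X), with CG dinucleotides in capitals.
C630043F03Rik: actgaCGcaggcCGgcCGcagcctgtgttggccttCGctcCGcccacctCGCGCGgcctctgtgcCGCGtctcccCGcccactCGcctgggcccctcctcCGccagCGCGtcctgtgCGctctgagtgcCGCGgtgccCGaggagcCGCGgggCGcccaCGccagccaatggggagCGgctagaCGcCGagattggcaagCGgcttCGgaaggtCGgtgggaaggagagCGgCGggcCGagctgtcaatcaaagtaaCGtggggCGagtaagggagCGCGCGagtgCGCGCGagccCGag
6720401G13Rik: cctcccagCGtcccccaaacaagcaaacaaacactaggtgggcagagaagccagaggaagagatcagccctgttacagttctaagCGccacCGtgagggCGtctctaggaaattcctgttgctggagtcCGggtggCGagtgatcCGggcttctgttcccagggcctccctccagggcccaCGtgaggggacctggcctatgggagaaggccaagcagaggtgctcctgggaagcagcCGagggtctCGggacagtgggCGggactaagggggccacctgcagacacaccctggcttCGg
The C630043F03Rik window held 41 CG dinucleotides, a number reached by 3.3% of the 27025 RefSeq promoters of that length, and the 6720401G13Rik window held 12, reached by 40.1%. Promoter windows were found for 30 of the 65 genes at their own site. Their median GC content was 62.0% against 52.7% over all promoters, and their median number of CG dinucleotides was 22 against 7. The 30 belong to genes chosen for expression in every embryo, while all promoters were taken whether expressed here or not. Promoters of other expressed genes were not examined, so these values do not set the 30 apart from them. Whether these windows bear on the differences was not tested.

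Of the RNA subunits of enzymes, Rmrp and Rpph1 met the floor. Rmrp is the RNA of RNase MRP, which takes part in ribosomal RNA processing, and Rpph1 is the catalytic RNA of RNase P, which trims the leader of transfer RNAs. Rmrp measured 50.5 and 49.0 FPKM in the Foxf2+/+ and Foxf2+/- controls and 34.9 and 42.9 FPKM in the Foxf2-/- embryos. Both mutants were below both controls, and the log2 difference was −0.36 (SE 0.114) with a limma adjusted p of 0.245. It was −0.21 without Foxf2-/- replicate 1 and −0.51 without replicate 2. Rpph1 measured 38.0 and 38.2 FPKM in the controls against 33.6 and 36.9 FPKM. Its mutants too lay below both controls as deposited, with a log2 difference of −0.12 (SE 0.0936) and a limma adjusted p of 0.601, but overlapped them after rescaling, with a difference of −0.04. Without Foxf2-/- replicate 1 it was −0.05. Of 16 protein genes of RNase MRP, RNase P and telomerase, 11 were tested and 0 passed either criterion, with a median log2 difference of −0.14. Among the 11, 4 were lower in both Foxf2-/- embryos, beside 38.7% of all tested genes. The telomerase RNA Terc stayed under the floor, at 2.61, 3.22, 1.099 and 2.29 FPKM in the order Foxf2+/+, Foxf2+/-, and Foxf2-/- replicates 1 and 2. Of 7 proteins of the 7SK particle, which holds back transcription elongation, 4 were tested and 0 passed, with a median of −0.19. Among the 4, 3 were lower in both Foxf2-/- embryos, beside 38.7% of all tested genes.

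Both RNA genes lie beside the start of a coding gene on the other strand. Part of the sequence of each is shown, taken from bases that no coding exon shares. Rmrp (chr4:43505657-43505931, minus strand) shared 124 bases with exons of Ccdc107, and libraries of the kit used do not keep strand. Rpph1 (chr14:51427122-51427446, minus strand) starts 175 bases from the start of Parp2, a DNA repair enzyme gene, and overlapped no coding exon. The lines give mm9 on the minus strand, 5′ to 3′, of chr4:43505657-43505771 for Rmrp and of chr14:51427147-51427446, the first 300 bases, for Rpph1.
Rmrp: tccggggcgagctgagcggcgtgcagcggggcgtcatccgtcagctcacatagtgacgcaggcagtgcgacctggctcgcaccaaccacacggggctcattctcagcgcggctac
Rpph1: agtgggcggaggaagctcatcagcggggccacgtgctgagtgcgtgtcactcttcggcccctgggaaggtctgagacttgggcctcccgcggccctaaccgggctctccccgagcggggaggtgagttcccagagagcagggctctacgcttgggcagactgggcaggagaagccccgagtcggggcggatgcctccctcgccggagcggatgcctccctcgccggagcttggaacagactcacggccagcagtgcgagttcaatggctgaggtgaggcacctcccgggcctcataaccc
Ccdc107 measured 11.5, 11.2, 9.58 and 8.29 FPKM in the order above, with a log2 difference of −0.34 (SE 0.104) and a limma adjusted p of 0.239. The sum of Rmrp and Ccdc107 differed by −0.35, close to each of the pair. Parp2 measured 19.9, 17.7, 15.6 and 14.97 FPKM, a log2 difference of −0.30 with a limma adjusted p of 0.259.

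In all, 11 genes shared exon bases with a coding gene on the opposite strand or were typed as antisense RNA, and 15 began within 1000 bases of the start of a coding gene on the other strand. The 11 had a median log2 difference of −0.15, with 6 lower and 0 higher in both Foxf2-/- embryos, beside 38.7% and 8.66% of all tested genes. Because strand was not kept, reads from the shared bases cannot be assigned to either gene of a pair. Apeg3 (now Peg3os) lay wholly on exon bases of Peg3, an imprinted zinc finger gene, and measured 123, 101, 101 and 100.1 FPKM in the order Foxf2+/+, Foxf2+/-, and Foxf2-/- replicates 1 and 2. Peg3 followed the same order of embryos, with 102, 80.1, 77.8 and 77.5 FPKM. In both genes the Foxf2+/+ control stood above the other 3 embryos, which lay close together. The Apeg3 difference was −0.15 (SE 0.112) with a limma adjusted p of 0.566.

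Several antisense genes lay on known developmental genes. Of 25 listed RNAs beside developmental regulators, 8 were in the tables under the listed symbol and 1 of these, Dlx1as, met the floor. Pantr1, also listed, met it under its older symbol 2610017I09Rik, 2321 bases from Pou3f3. It measured 9.64, 7.01, 7.93 and 8.84 FPKM in the order Foxf2+/+, Foxf2+/-, and Foxf2-/- replicates 1 and 2. Its groups overlapped, with a difference of 0.03 (SE 0.151). Msx1as, antisense to the homeobox gene Msx1, was level across embryos at 34.7, 36.9, 36.6 and 36.4 FPKM, in the same order, with a difference of 0.03 (SE 0.0906). Msx1 itself measured 7.17, 7.91, 7.72 and 8.51 FPKM, so 81.1 to 82.9% of the summed level was listed under the antisense entry, which shared 1137 bases with Msx1 exons. Dlx1as measured 6.14, 7.60, 7.07 and 6.46 FPKM against 14.002, 14.3, 13.8 and 11.0 FPKM for the homeobox gene Dlx1, and differed by −0.02 (SE 0.135), a sign that turned under other settings. Has2as, antisense to the hyaluronan synthase gene Has2, had levels of 12.8 and 12.4 FPKM in the Foxf2+/+ and Foxf2+/- embryos, and of 9.97 and 11.3 FPKM in the mutants. The mutants lay below both controls, with a difference of −0.24 (SE 0.0998) and a limma adjusted p of 0.314. Has2 measured 34.0, 28.0, 30.1 and 29.3 FPKM, and its groups overlapped.

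2810025M15Rik, which shares 244 exon bases with the start of Rasal2, had the second lowest difference of the 65 genes. It measured 13.4 and 15.8 FPKM in the Foxf2+/+ and Foxf2+/- controls and 11.9 and 10.2 FPKM in the Foxf2-/- embryos. The log2 difference was −0.41 (SE 0.118) with a limma adjusted p of 0.236. Rasal2, a Ras GTPase activator gene, was lower in level, at 2.63 to 2.87 FPKM in 3 embryos and 2.945 FPKM in Foxf2-/- replicate 1, and was not tested. G530011O06Rik, antisense to the Mid1 gene, measured 5.33, 5.80, 5.34 and 6.91 FPKM, with overlapping groups, while Mid1 measured 17.7, 18.2, 21.6 and 24.1 FPKM, with a log2 difference of 0.34 and a limma adjusted p of 0.230.

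Tug1, a nuclear and cytoplasmic lncRNA that starts 686 bases from Morc2a, varied little. It measured 54.5, 50.3, 50.5 and 52.8 FPKM in the order Foxf2+/+, Foxf2+/-, and Foxf2-/- replicates 1 and 2. Its difference was −0.02 (SE 0.0938), with a sign that turned when the libraries were rescaled. Morc2a measured 13.9 to 15.7 FPKM. 2900097C17Rik, now Norad, an RNA that binds Pumilio proteins, measured 35.3, 32.9, 30.8 and 33.1 FPKM with overlapping groups and a difference of −0.09 (SE 0.0945). 1700020I14Rik, now Oip5os1 and also called Cyrano, has a known role in the decay of a microRNA. It measured 17.5, 22.4, 22.2 and 18.1 FPKM. One embryo of each group was near 22 FPKM and the other near 18, and the difference was 0.02 (SE 0.142), with a sign that turned under other settings.

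Of the hosts of small RNAs, 2610203C20Rik (Mir100hg), from which a microRNA cluster is cut, was steady at 99.9, 99.4, 94.0 and 102 FPKM. Dnm3os, a microRNA host inside an intron of Dnm3 known for skeletal development, measured 17.2 and 18.5 FPKM in the controls and 14.5 and 16.97 FPKM in the Foxf2-/- embryos, with a difference of −0.18 (SE 0.105) and a limma adjusted p of 0.462. 5430416N02Rik was on the fixed list of microRNA hosts, but small RNAs at its site were not examined. It had 18.3 FPKM in the Foxf2+/+ control and 14.2, 13.1 and 15.3 FPKM in the other 3 embryos, and its groups overlapped. 2 of the genes, 1810032O08Rik (now Snhg16) and LOC100616095 (now Snhg18), carry names of small nucleolar RNA host genes in the later RefSeq release. Genes named so at the time were left out. Whether other genes of the group host small nucleolar RNAs was not examined. LOC100616095 measured 9.42, 9.23, 8.94 and 10.7 FPKM.

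1810032O08Rik stood out by its entries. Summed, it measured 8.25 and 7.91 FPKM in the controls against 6.04 and 6.74 FPKM in the Foxf2-/- embryos, a log2 difference of −0.34 (SE 0.112) with a limma adjusted p of 0.261. Its entry of 865 bases had 6.86 and 4.65 FPKM in the Foxf2+/+ and Foxf2+/- controls against 0.989 and 2.52 FPKM in Foxf2-/- replicates 1 and 2. The entry of 673 bases ran the other way, with 0.729 and 1.97 FPKM in the controls and 4.23 and 2.93 FPKM in the mutants. The last entry, of 1997 bases, lay between 0.656 and 1.30 FPKM. Taken alone, the entry of 865 bases differed by −1.77 on the log2 scale with a limma adjusted p of 0.348. With the highest entry standing for each gene, only 1810032O08Rik of the 65 was past 1.5-fold from both controls. Under that setting 96 of all tested genes were past it, against 49 with entries summed. How single-end reads were split between entries is not given in the sources used here.

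**Figure D4:**
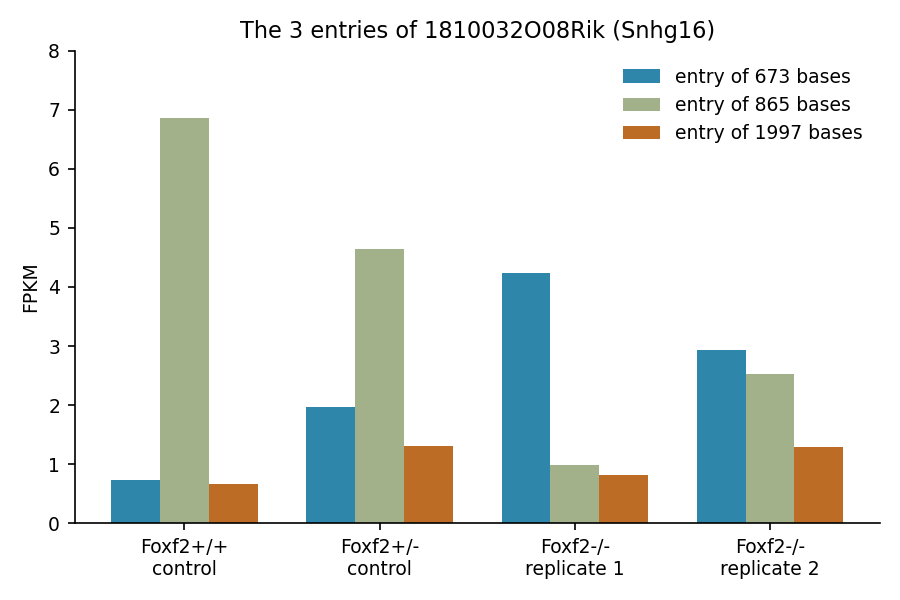
FPKM of the 3 entries of 1810032O08Rik (Snhg16) in each embryo, as bars from 0. The entry of 865 bases is the highest in both controls (6.86 and 4.65 FPKM) and the entry of 673 bases the highest in both Foxf2-/- embryos (4.23 and 2.93 FPKM).

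A further 3 lncRNAs with non-overlapping groups differed by about as much. A030009H04Rik (now Rnf227) measured 7.04 and 7.504 FPKM in the controls against 6.27 and 5.44 FPKM, with a difference of −0.31 (SE 0.124). 2410018L13Rik measured 10.4 and 8.12 FPKM against 7.44 and 7.41 FPKM, a difference of −0.30 (SE 0.128) that was −0.13 without the Foxf2+/+ control and −0.47 without the Foxf2+/- control. 1600020E01Rik measured 10.1 and 9.46 FPKM against 9.44 and 6.71 FPKM, so that only Foxf2-/- replicate 2 stood clearly lower, and it overlapped after rescaling. limma adjusted p-values for these 3 were 0.306, 0.330 and 0.416. 1110038B12Rik, the tenth highest gene, measured 78.3, 91.6, 85.3 and 88.8 FPKM, and its 2 entries ran in opposite directions, with 36.4 and 40.0 FPKM in the controls against 50.1 and 43.9 FPKM for the entry of 439 bases and 41.9 and 51.5 against 35.2 and 44.9 FPKM for that of 586 bases. 2610005L07Rik and 6820431F20Rik, both transcribed pseudogenes, shared chr8:19991156-20020278 through 1 of the 2 entries of the latter. Both lay lower in both Foxf2-/- embryos, with differences of −0.28 and −0.23.

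The 12 entries on exons of coding genes had a median log2 difference of −0.08, with 3 lower and 1 higher in both Foxf2-/- embryos, beside 38.7% and 8.66% of all tested genes. LOC624853 measured 519 and 553 FPKM in the controls and 481 and 406 FPKM in the Foxf2-/- embryos, a difference of −0.28 (SE 0.111) with a limma adjusted p of 0.306. Hspa8, on whose exons it lies, measured 794, 752, 617 and 651 FPKM and differed by −0.29 (SE 0.0950). Gm5643 measured 126 and 133 FPKM against 101 and 106 FPKM, and Hnrnpa1 42.2 and 44.5 FPKM against 37.4 and 36.4 FPKM. Both genes of each pair lay lower in both mutants, although LOC624853 overlapped after rescaling. Gm10052, on the same Hnrnpa1 exons as Gm5643, measured 43.7 and 36.3 FPKM in the controls and 49.4 and 41.4 FPKM in the mutants, a difference of 0.18 with overlapping groups. Gm6793 measured 292, 348, 291 and 301 FPKM, and its groups overlapped.

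Of all 65 genes Atp6v0c-ps2 varied most between embryos, and Atp6v0c was high where it was low. Atp6v0c-ps2 measured 7.02 FPKM in the Foxf2+/+ control, 23.6 in the Foxf2+/- control, and 17.1 and 10.1 in Foxf2-/- replicates 1 and 2. Atp6v0c measured 34.5, 16.9, 21.1 and 30.6 FPKM in the same embryos. The sum of the pair was 41.5, 40.5, 38.3 and 40.7 FPKM, so that it spanned 0.12 on the log2 scale where Atp6v0c-ps2 alone spanned 1.74. Gm15772 did likewise with Rpl26: it measured 149, 161, 118 and 157 FPKM, Rpl26 measured 22.6, 10.2, 38.5 and 11.2 FPKM, and the sum 172, 171, 156 and 168 FPKM. The sum spanned 0.14 where Gm15772 alone spanned 0.45. Of the 12 pairs the sum spanned less than the non-coding entry in 10, or 83.3%, while it was equal to 3 decimals for Tpt1p and larger for Nutf2-ps1. The same held for 20 of 33 pairs of a gene with its nearest coding gene without overlap, or 60.6%, so a narrower sum was also seen where no exon was shared.

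**Figure D5:**
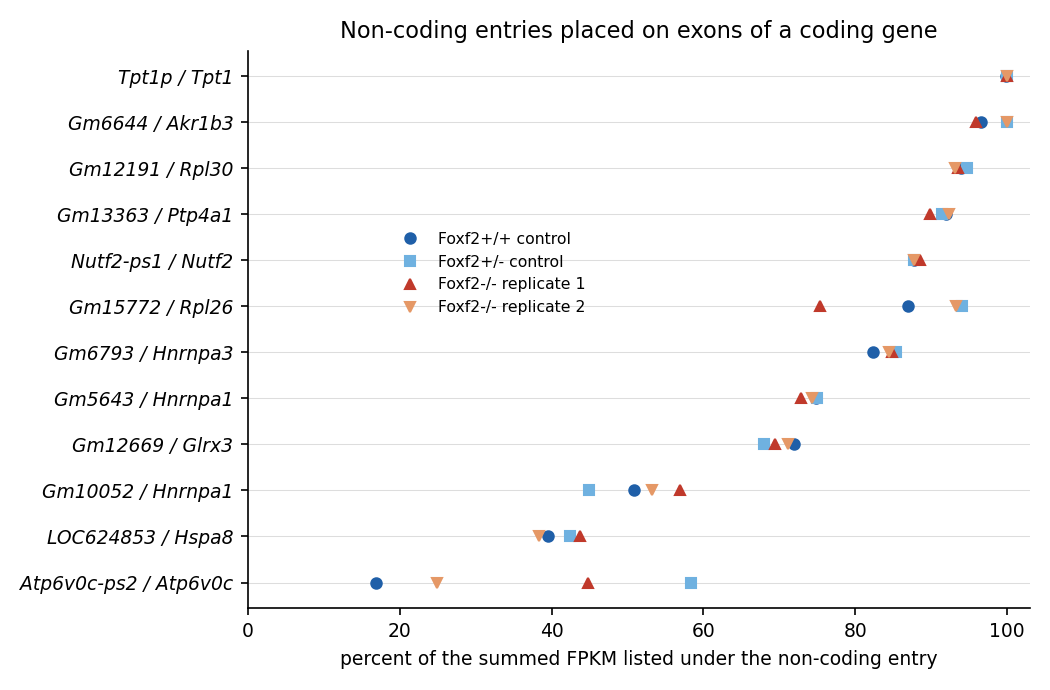
Share of the summed FPKM of each pair that was listed under the non-coding entry, in percent, 1 point per embryo, for the 12 entries placed on exons of a coding gene. The share lies near 100% for Tpt1p in all embryos and spreads from 16.9 to 58.4% for Atp6v0c-ps2.

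The share listed under the non-coding entry was 99.9 to 100% for Tpt1p, since Tpt1 was listed at 0.188 to 0.382 FPKM. It was 93.1 to 94.7% for Gm12191 and 38.4 to 43.8% for LOC624853. Akr1b3 was listed at 1.41, 0, 2.00 and 0.001 FPKM in the order Foxf2+/+, Foxf2+/-, and Foxf2-/- replicates 1 and 2, while Gm6644 on its exons measured 40.7, 47.0, 47.0 and 52.7 FPKM. Estimates of 5 of these entries or pseudogenes (Gm12669, Gm6644, Gm10052, Nutf2-ps1 and Gm15772) carried a mark for low data in at least 1 embryo.

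The floor of 5 FPKM in every embryo shaped the group. Just inside, Gm11968 measured 5.16, 5.65, 5.27 and 5.69 FPKM in the order Foxf2+/+, Foxf2+/-, and Foxf2-/- replicates 1 and 2. Gt(ROSA)26Sor, the widely expressed locus used for knock-in alleles, measured 8.23, 5.18, 5.16 and 5.75 FPKM, with the Foxf2+/+ control standing alone. 1190002F15Rik measured 5.37, 6.19, 7.07 and 5.33 FPKM in that order. Just outside were AI450353 (lowest level 4.996 FPKM), D330041H03Rik (4.993) and A230072C01Rik (4.983). Another 27 non-coding genes reached 5 FPKM in some but not every embryo, these 3 among them, and 235 were listed at 0 in every embryo. The floor leaves out any gene that is low in a single embryo. 1700018A04Rik lay at chr13:31657361-31674382, 43303 bases from Foxf2 and 4522 bases from its nearest coding gene, Foxq1. It measured 12.9 and 6.09 FPKM in the Foxf2+/+ and Foxf2+/- controls and 0 and 0.563 FPKM in the Foxf2-/- embryos. Its log2 difference was −5.12 (SE 1.19) with a limma adjusted p of 0.1535, so limma did not call it. Gm9786 measured 16.3 and 17.2 FPKM in the controls and 3.45 and 0.00873 FPKM in the Foxf2-/- embryos. Its site, chr10:80289441-80291962, overlapped that of the coding gene Oaz1, and how reads were divided between the pair was not examined. Both 1700018A04Rik and Gm9786 were named after their values were seen.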

How the data were processed

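The authors dissected palatal shelves, sorted RFP-positive cells, made Nextera libraries and sequenced single-end reads, which were aligned to mm9 with Tophat and Bowtie (Bowtie 0.12.7 per the submitters' processing notes). They deposited 1 table per embryo, named for Cufflinks and in its form, with the FPKM of each RefSeq transcript and its coverage, a signal of estimated mean read depth that the authors did not scale to library size. The study's methods name Strand NGS for their expression values per RefSeq gene, which are not used here. The version and options behind the deposited tables are not given in the sources used here.

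FPKM of entries of at least 200 bases were summed by gene symbol, and 10 genes with a failed estimate were dropped. Genes at 5 FPKM or more in at least 1 embryo (7399) were fitted as log2(FPKM + 0.1) with limma 3.58.1 in R 4.3.3, with a variance trend, as 2 Foxf2-/- embryos against 2 controls. Benjamini-Hochberg adjustment ran over all 7399 genes, and a call needed an adjusted p under 0.05 and a change over 1.5-fold. No count model was used, since the tables hold no counts. The pseudocount shrinks fold changes of low genes. A second criterion, with no p, asked that the mutant mean exceed 1.5-fold of, or lie as far under, both control values. The script was tested on simulated data.

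Positions are those of the tables on mm9. The mm9 annotation GENCODE M1 gave overlaps and strands: of 25364 coding entries with a gene of the same symbol, 98.54% overlapped it. Types, current symbols and promoters came from RefSeq on GRCm38.p6. Python 3.11.15, pandas 2.3.3 and numpy 2.4.6 were used for tables and Biopython 1.88 for alignments.

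The genes and lists were chosen with earlier results of these data known. Values were printed for the 10 genes with the highest mean, any gene past a criterion, the 10 largest differences among genes with non-overlapping groups, genes on fixed class lists, and the 3 genes on either side of the floor. Other genes named for their site, entries or spread were chosen after their values were seen.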

Additional observations from a re-analysis of the deposited data

How the results depend on the processing

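The tables hold no read counts, so counting error is unknown, and each control genotype rests on 1 embryo. No paired analysis was possible because replicate numbers were given for the Foxf2-/- embryos only. The count of the 65 genes past 1.5-fold from both controls was 0, and became 1 (1810032O08Rik) when the highest entry stood for each gene. It ranged from 0 to 3 with 1 embryo left out: 1 without the Foxf2+/+ control (Atp6v0c-ps2) and 3 without the Foxf2+/- control (Atp6v0c-ps2, C630043F03Rik and Gt(ROSA)26Sor). The limma count ranged from 0 to 2, the 2 being Atp6v0c-ps2 and C630043F03Rik (0.589, limma adjusted p 0.0421) without the Foxf2+/- control. A fit with 1 control assumes that it varies like the mutants. Both counts also rose over all tested genes with 1 control left out. The count past 1.5-fold was 87 without the Foxf2+/+ control and 217 without the Foxf2+/- control, against 49. The limma counts are given below. The 3 genes past 1.5-fold from the Foxf2+/+ control were 4.62% of the 65, beside 2.95% of tested genes and 1.62% at the same floor. The median log2 difference of −0.1061 became −0.0274 after rescaling by median ratios and ranged from −0.1288 to −0.0691 with 1 embryo left out. A floor of 10 FPKM gave 39 genes and a floor of 2 FPKM gave 138.

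Over all tested genes, the limma count of 6 became 16 with a pseudocount of 1, 26 with entries of any length, 1 with the highest entry, 0 with no filter, 2 with at least 5 FPKM in every embryo, 78 with a separate mean for each genotype, 43 with the number of null alleles as a linear term, and 13 without genes marked for low data, a setting chosen after seeing the data. With 1 embryo left out it ranged from 9 to 122, with 34 without the Foxf2+/+ control and 122 without the Foxf2+/- control. The count of 49 past 1.5-fold from both controls became 184 with entries of any length, 96 with the highest entry, 639 with no filter, 15 with 5 FPKM in every embryo and 17 at 2-fold, and ranged from 69 to 217 with 1 embryo left out.

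Of 374 comparisons of the 25 named genes with an alternative, 19 changed the sign, in 8 genes, and 1 gained a call. After rescaling, 2610203C20Rik was at 0.051, Dlx1as at 0.062, Tpt1p at 0.031 and Tug1 at 0.057. With the highest entry, 1110038B12Rik was at −0.225, 1700020I14Rik at −0.082 and Tug1 at 0.016, and with the linear term Dlx1as was at 0.092. With 1 embryo left out, the ranges that crossed 0 were −0.074 to 0.152 for 1110038B12Rik, −0.161 to 0.197 for 1700020I14Rik, −0.079 to 0.036 for Tug1, −0.168 to 0.135 for Dlx1as, −0.232 to 0.019 for Gm6793, −0.084 to 0.028 for 2610203C20Rik, −0.395 to 0.018 for Gm15772 and −0.100 to 0.003 for Tpt1p. The cause was not tested.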
